A study of Mus musculus with 3 samples.

Results

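The genes described here are 8 components of epithelial inflammasomes and cytokines linked to them, namely the cytokines Il18 and Il15, the sensors Nlrp6, Naip1 and Nlrc4, the adaptor Pycard, the protease Casp1 and the pore-forming protein Gsdmd. They were picked by name from the 31053 genes of the deposited matrices, and all 8 were found. Single cells were measured from the small intestine of wild-type C57BL/6N male mice at 12 weeks of age. Cells of 3 mice were pooled, and 1 library was made per segment, with the duodenum as the proximal, the jejunum as the middle and the ileum as the distal one. Live cells, gated as negative for propidium iodide, were a mixture of intestinal epithelial cells (IECs) and intraepithelial immune cells. Because the mice were pooled and each segment had 1 library, no value here carries a measure of variation between mice, and segments could be described but not tested.

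An inflammasome is a cytosolic complex that turns the sensing of a microbe or of damage into protease activity. NLRP6 is a sensor known for its role in the gut epithelium, whereas NAIP proteins bind bacterial flagellin or secretion system proteins and then engage NLRC4. PYCARD, also called ASC, links sensors to caspase-1, the protease encoded by Casp1, which cleaves the IL-18 precursor and gasdermin D. Cleaved gasdermin D forms membrane pores and can end in pyroptosis, and NAIP and NLRC4 activation in enterocytes is known to lead to expulsion of the cell into the lumen. IL-18 is made constitutively as an inactive precursor by the epithelium. IL-15, which needs no caspase-1, sustains intraepithelial lymphocytes.

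In the GRCm38 annotation Il18 lies on chr9:50554827-50581840 (plus strand) and Casp1 on chr9:5298517-5307265 (plus strand). Nlrp6 lies on chr7:140920902-140929192 (plus strand) and Pycard on chr7:127989708-127993867 (minus strand). Naip1 is on chr13:100407764-100452869 (minus strand), Nlrc4 on chr17:74425438-74459142 (minus strand), Gsdmd on chr15:75862327-75867408 (plus strand) and Il15 on chr8:82331632-82403222 (minus strand). These spans are whole genes, and the deposited counts do not say which exon or untranslated region a read came from. The gene Il18 overlaps Bco2 and Tex12 on the opposite strand, Pycard overlaps Gm45205, and Naip1 overlaps the pseudogene Rpl31-ps13. Nlrc4 shares its strand with the overlapping CT033749.1. Whether counting used the strand was not given in the sources used here. Naip1 is also a close paralog of Naip2, Naip5 and Naip6, so reads from sequence they share may have been dropped or misassigned, and the values of all 4 are uncertain to that extent.

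Start site regions are shown for 4 genes that take opposite sides of the villus comparison, Pycard, Nlrp6 and Il18 (higher at the bottom) and Naip1 (higher at the tip). Each sequence, from RefSeq on GRCm38.p6, holds 250 bases before the start site and 50 bases from it onward, read 5′ to 3′ on the gene's strand. RefSeq promoters were found for 6 of the 8 genes, all but Gsdmd and Il15. Capitals mark matches to the motifs searched.
Pycard, chr7:127993818-127994117, minus strand: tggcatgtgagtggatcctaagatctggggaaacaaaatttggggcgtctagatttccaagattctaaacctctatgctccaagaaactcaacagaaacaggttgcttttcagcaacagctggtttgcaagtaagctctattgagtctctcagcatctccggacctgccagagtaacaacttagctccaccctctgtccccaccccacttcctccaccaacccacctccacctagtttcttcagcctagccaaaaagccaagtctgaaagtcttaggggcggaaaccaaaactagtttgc
Nlrp6, chr7:140920652-140920951, plus strand: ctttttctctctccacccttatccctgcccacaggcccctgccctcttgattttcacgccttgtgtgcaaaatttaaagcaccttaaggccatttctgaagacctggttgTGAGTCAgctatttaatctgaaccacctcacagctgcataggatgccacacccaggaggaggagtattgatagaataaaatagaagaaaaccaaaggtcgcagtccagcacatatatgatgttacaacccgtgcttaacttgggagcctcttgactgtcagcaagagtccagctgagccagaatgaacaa
Il18, chr9:50554450-50554749, plus strand: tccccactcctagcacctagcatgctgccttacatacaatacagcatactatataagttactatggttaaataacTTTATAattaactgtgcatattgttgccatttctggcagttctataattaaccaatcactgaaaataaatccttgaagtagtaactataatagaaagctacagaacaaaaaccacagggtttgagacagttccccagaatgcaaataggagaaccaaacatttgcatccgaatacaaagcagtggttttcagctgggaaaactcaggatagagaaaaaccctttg
Naip1, chr13:100452815-100453114, minus strand: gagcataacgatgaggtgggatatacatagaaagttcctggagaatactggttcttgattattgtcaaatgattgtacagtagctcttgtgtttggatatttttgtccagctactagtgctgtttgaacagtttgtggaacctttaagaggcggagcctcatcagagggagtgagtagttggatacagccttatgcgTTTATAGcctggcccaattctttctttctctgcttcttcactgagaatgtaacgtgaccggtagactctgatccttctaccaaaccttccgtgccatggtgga

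Both strands were searched for 6 motifs of factors known in enterocytes or immune responses and of the core promoter. These were the HNF4 motif CAAAGTNCA (in 1.43% of 32544 RefSeq promoters of this length), the STAT motif TTCNNNGAA (8.33%), the interferon response motif GAAANNGAA (8.53%), the AP-1 motif TGANTCA (7.79%), the CDX motif TTTATNG (10.8%) and the TATA motif TATAAA (13.6%). Nlrp6 held an AP-1 match at position -140 from its start site, and Il18 held a TATA match at -175. In Naip1 a TATA and a CDX match overlapped at -53. The windows of Pycard, Casp1 and Nlrc4 held none of these letters. No match was shared by the genes that were higher at the bottom, and a match describes letters in the window, not binding.

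The matrices held 27235 barcodes, of which 16686 passed the limits on UMIs, genes and mitochondrial share. A UMI is a tag that marks 1 captured RNA molecule. The deposited libraries held between 78074516 and 98518847 UMIs. Of the kept cells, the ileum library was shallower, with a median of 5536 UMIs per cell against 12424 in the duodenum and 11737 in the jejunum, and had a lower median mitochondrial share (11.1% against 27.1% and 27.2%). Kept cells of different libraries shared 21 barcode sequences, each between 2 libraries. A gene's level is given below as its UMIs per 10000 UMIs of the summed cells. Reads were counted from the 3′ end, so a level is not scaled to transcript length and comparisons are made within a gene.

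The label of epithelial cells held for most of the cells by their markers. Enterocyte clusters, in which all 13 enterocyte markers were detected, held 11707 cells, of which 3612 were duodenal, 3594 jejunal and 4501 ileal. The other epithelial classes were 747 goblet-like, 299 tuft-like, 171 enteroendocrine (EEC)-like, 231 intestinal stem or proliferating cell (ISC)-like and 24 Paneth-like cells. Genes leading the ISC-like cluster included its markers Olfm4, Stmn1, Slc12a2 and Top2a. They also included Gp2, Clca3b, Ccl20, Anxa5, Gkn2 and Ifitm2, which are not in its marker list. The class may thus hold cells other than stem or proliferating ones, and its levels are those of the mixture. Immune classes were 1231 T cell-like, 608 B cell-like, 87 IgA plasma cell-like and 204 macrophage or dendritic cell-like cells, and 1377 cells stayed unnamed. Most T and B cell-like cells came from the ileum (1088 and 546). None of the 8 genes, nor any gene of the pathway list below, was used to form the clusters.

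Within enterocytes the 8 genes split into opposite groups along the villus. Pycard, Nlrp6, Il18 and Casp1 fell from bottom to tip in each of the 3 libraries, and Il15, Naip1, Nlrc4 and Gsdmd rose. The fall was steep, with 36.6-fold more Pycard and 16.1-fold more Nlrp6 at the bottom than at the tip over the pooled libraries, while the rise was between 1.57-fold for Gsdmd and 2.90-fold for Il15. Position was not measured. It was ranked by a score, the mean of 9 genes known from the villus tip minus that of 8 genes known from its bottom, and each library's enterocytes were cut into 3 zones of equal size. None of the 8 genes is in the score. Of the enterocytes, 1777 (15.2%) lay within 0.1 SD of a limit between zones.

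Genes kept out of the score were used to check it. Tip over bottom, Apoa4 and Enpp3, known from the upper villus, were higher by 3.16 ± 0.46 and 5.16 ± 0.68 on the log2 scale (edgeR estimate ± SE, adjusted p = 5.05e-04 and 2.92e-04). The proliferation genes Mki67 (-1.49 ± 0.34, adjusted p = 0.00524) and Mcm6 (-0.98 ± 0.25, adjusted p = 0.00803) were lower. Pcna did not pass the test (0.16 ± 0.13, adjusted p = 0.31). Olfm4, a crypt marker, was higher at the tip zone (0.85 ± 0.22, adjusted p = 0.00913), against the order of the score. The bottom zone is thus the lowest part of the score among enterocytes and was not shown to be the crypt.

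The adaptor Pycard had the steepest course of the 8. Its level in the bottom, middle and tip zones was 4.83, 0.681 and 0.196 in the duodenum. In the jejunum it was 3.37, 0.110 and 0.0533, and in the ileum 4.58, 0.234 and 0.112. The lowest bottom value was above the highest middle value, and most of the drop lay between those zones. Split into 5 bins of equal size, Pycard went from 6.70 in the lowest bin to 1.12 in the next in the duodenum, from 4.72 to 0.271 in the jejunum and from 5.80 to 0.536 in the ileum. The tip over bottom difference was -4.93 ± 0.35 on the log2 scale (edgeR quasi-likelihood test on 9 sums with the library as a block, adjusted p = 2.7e-05). Of the 11882 genes tested, 36 had a lower estimate.

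The sensor Nlrp6 stood at 1.60, 0.919 and 0.229 from bottom to tip in the duodenum. It stood at 1.56, 0.306 and 0.0360 in the jejunum and at 1.5, 0.266 and 0.0421 in the ileum. Bottom levels of the 3 segments were close to each other, while the duodenum kept more Nlrp6 in the zones above. The bottom level was thus 7.0 times the tip level in the duodenum, 43.3 times in the jejunum and 35.6 times in the ileum. Over the libraries the difference was -4.00 ± 0.42 (log2, edgeR adjusted p = 1.03e-04), and 112 of the genes tested had a lower estimate.

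For the cytokine Il18, the zone levels were 4.36, 2.42 and 1.15 in the duodenum. They were 1.71, 0.251 and 0.102 in the jejunum and 0.867, 0.211 and 0.0764 in the ileum. The tip zone of the duodenum held more Il18 than the bottom zone of the ileum, so the zones overlapped between libraries although each library fell. The log2 difference was -2.75 ± 0.34 (edgeR adjusted p = 2.07e-04) and without the library block it was -2.11 with an adjusted p of 0.231. Bco2, a carotenoid-cleaving enzyme encoded on the opposite strand of the Il18 locus, was also lower at the tip, going from 0.760 to 0.242 in the duodenum, from 0.415 to 0.0332 in the jejunum and from 0.201 to 0.0171 in the ileum. Without strand-specific counting, reads from the stretch where the 2 genes overlap could not be told apart. The share of one gene in the other was not tested.

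The protease gene Casp1 fell from 1.30 through 0.643 to 0.347 in the duodenum, from 1.24 through 0.326 to 0.124 in the jejunum and from 1.48 through 0.432 to 0.172 in the ileum. All 3 bottom values were above all other zone values. The log2 difference between tip and bottom was -2.34 ± 0.21 (edgeR adjusted p = 5.91e-05).

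Il15 took the opposite course. Its levels from bottom to tip were 0.212, 0.392 and 0.669 in the duodenum and 0.290, 0.649 and 0.724 in the jejunum. In the ileum they were 0.170, 0.398 and 0.580. The 3 bottom values lay under every middle and tip value. The log2 difference was 2.02 ± 0.16 (edgeR adjusted p = 4.05e-05), and 595 of the genes tested had a higher estimate.

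Naip1, whose protein recognises the needle protein of bacterial type III secretion systems, and its partner Nlrc4 rose less. Naip1 went from 0.376 through 0.395 to 0.538 in the duodenum, from 0.357 through 0.470 to 0.556 in the jejunum and from 0.786 through 1.08 to 1.85 in the ileum. Its log2 difference was 1.24 ± 0.20 (edgeR adjusted p = 7.6e-04), and 1.43 with an adjusted p of 0.103 without the library block. Its partner Nlrc4 went from 0.303 through 0.435 to 0.579 in the duodenum, from 0.380 through 0.588 to 0.721 in the jejunum and from 0.581 through 0.751 to 0.770 in the ileum, a difference of 1.19 ± 0.14 (edgeR adjusted p = 1.63e-04). Bottom enterocytes of the ileum held more Naip1 than tip enterocytes of the duodenum or jejunum.

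Gsdmd rose between bottom and middle, with little difference above. It stood at 1.83, 2.60 and 3.17 in the duodenum, at 2.89, 4.20 and 3.77 in the jejunum and at 2.28, 4.04 and 4.01 in the ileum. The log2 difference between tip and bottom was 1.10 ± 0.15 (edgeR adjusted p = 3.74e-04), and between tip and middle it was 0.32 ± 0.15 with an adjusted p of 0.161.

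**Figure D1:**
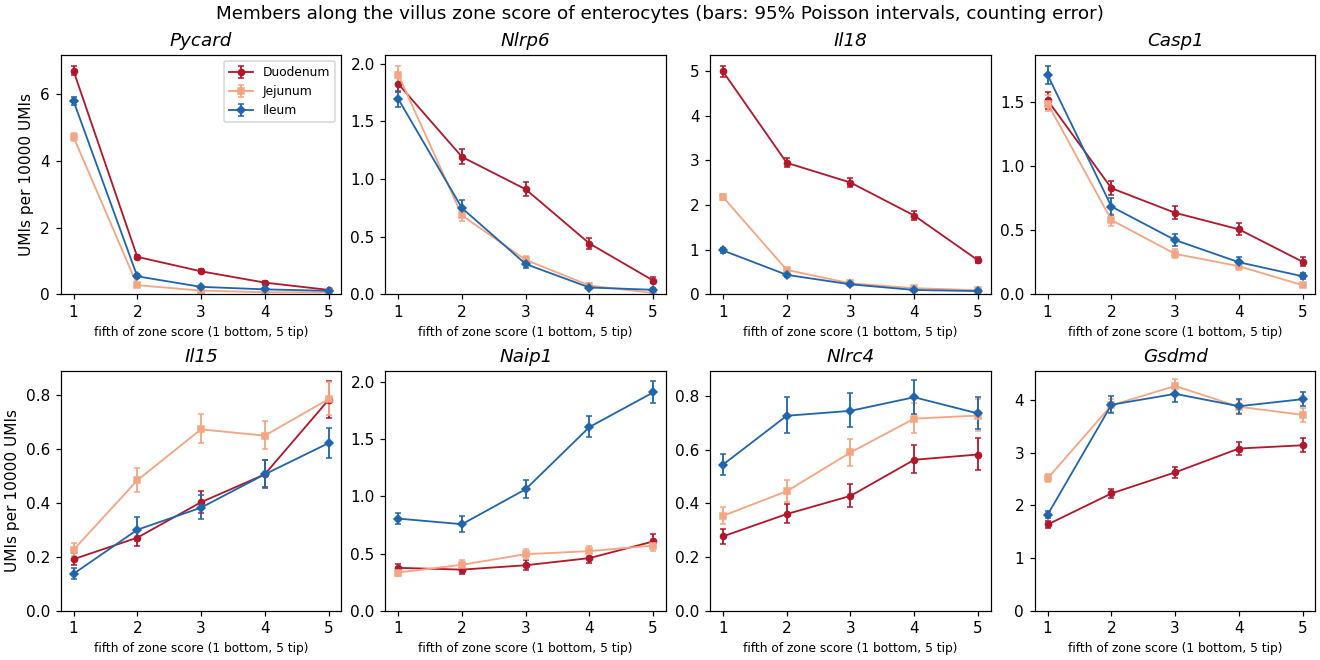
Levels of the 8 genes (UMIs per 10000 UMIs) in enterocytes of each library, in 5 bins of equal size ordered by the zone score, with 95% Poisson intervals for counting error. Pycard drops between the first and second bin in all 3 libraries, from 6.70 to 1.12 in the duodenum, and Il18 stays highest in the duodenum in every bin, while Naip1 is highest in the ileum in every bin.

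Of the 8 genes, 4 were called lower and 4 higher at the tip than at the bottom, where 33.2% of all genes tested were called lower and 28.1% higher. The comparison thus called most genes of the transcriptome one way or the other, and the count of calls by itself does not set these genes apart. Between middle and bottom, 4 were lower (background 18.7%) and 3 higher (16.1%), with Naip1 not called (0.46 ± 0.19, edgeR adjusted p = 0.0978). Between tip and middle, Nlrp6 and Casp1 were lower (background 7.38%) and Il15, Naip1 and Nlrc4 higher (8.44%). Pycard (adjusted p = 0.0501) and Il18 (adjusted p = 0.0696) did not pass in that last edgeR comparison. The calls between tip and middle were fewer without the jejunum or the ileum, and those between middle and bottom were fewer without the jejunum. The estimates kept their direction. Without the jejunum, 3 genes were called between middle and bottom and 0 between tip and middle by edgeR. Without the ileum, 0 were called between tip and middle. At an unadjusted p under 0.05, the latter comparison gave 7 without the jejunum and 6 without the ileum, and DESeq2 on all libraries called 7.

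Other quantities moved along the score. The median UMIs per cell went from bottom to tip from 16589 to 9212.5 in the duodenum and from 16189.5 to 11564.5 in the jejunum but not in the ileum (7198 and 7400). The median mitochondrial share went from 26% to 28.6% in the duodenum and from 15.6% to 9.09% in the ileum. Summed levels of the 9 macrophage and monocyte markers went from between 1.00 and 1.69 at the bottom to between 2.41 and 3.23 at the tip, with no marker at 0. The dendritic markers summed to at most 0.0109 in any zone, with 2 of 9 at 0 in each. Summed levels of the 12 stem and proliferating cell markers went from bottom to tip from 0.607 to 0.410 in the duodenum, from 0.550 to 0.380 in the jejunum and from 0.832 to 0.484 in the ileum. The part of depth and of RNA from other cells in these results was not tested. The 8 tip over bottom calls were also made with at most 20% mitochondrial UMIs and in cells of at least 3000 UMIs.

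In the wider list of 46 inflammasome, gasdermin, IL-1 family and receptor genes, 30 were tested, of which 7 were called higher and 7 lower at the tip than at the bottom, where 28.1% and 33.2% of all genes were. Without TMM, the scaling between libraries that edgeR uses, the median of all genes moved from -0.09 to -0.53 and the calls over all genes from 3336 higher and 3946 lower to 1932 and 5556. Of the 8 genes, those that rose then had smaller log2 differences (Gsdmd 0.67, Nlrc4 0.75, Naip1 0.80 and Il15 1.58). Those that fell had larger ones, and all 8 were still called. With TMM, the median log2 difference of the 30 tested list genes was 0.24, beside -0.62 for the 8 genes and -0.09 for all genes. Among sensors, Nlrp9b, which is known from the intestinal epithelium as a sensor of viral RNA, rose by 2.11 ± 0.13 on the log2 scale (edgeR adjusted p = 1.67e-05) and was higher at the tip in each library. Its level went from 0.211 to 0.765 in the duodenum, from 0.383 to 1.17 in the jejunum and from 0.463 to 1.35 in the ileum. Dhx9, an RNA helicase that partners NLRP9B, fell (-0.71 ± 0.12, adjusted p = 0.00119), as did Nlrp1b (-0.77 ± 0.30, adjusted p = 0.0484) and Nod1 (-2.16 ± 0.81, adjusted p = 0.0445). Nlrp1b was sparse, going from 0.0478 to 0.0394 in the duodenum, a change within counting error. Its level went from 0.0445 to 0.0104 in the jejunum and from 0.0468 to 0.0164 in the ileum. In the duodenum and the ileum its middle zone stood above the bottom. Nod1 was near the floor, going from 0.00844 to 0.00336 in the duodenum, with too few UMIs for a ratio in the jejunum and the ileum. Naip2 was called higher (0.66 ± 0.14, adjusted p = 0.00313), but its level went from 0.396 to 0.364 in the jejunum, the pooled level from 0.391 to 0.471, and without TMM the difference was 0.23 (adjusted p = 0.194). Naip5 (0.29 ± 0.21) and Naip6 (-0.12 ± 0.20) did not pass the test.

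Casp8, the initiator caspase of extrinsic apoptosis, rose (1.49 ± 0.16, edgeR adjusted p = 1.06e-04). Other pore formers were divided. Gsdme rose (1.52 ± 0.23, adjusted p = 6.59e-04), Gsdmc2 (-4.52 ± 0.68, adjusted p = 0.00136) and Gsdmc4 (-5.54 ± 0.41, adjusted p = 3.04e-05) fell, and Ninj1, which mediates membrane rupture after pyroptosis, fell (-1.26 ± 0.30, adjusted p = 0.00647). Among single libraries, Gsdmc4 had enough UMIs for a ratio in the ileum alone (0.401 at the bottom and 0.00701 at the tip). Gsdmc2 had enough only over the pooled libraries (0.0467 and 0.00128). Regulators and receptors that rose were Il1rn, the IL-1 receptor antagonist (3.93 ± 0.69, adjusted p = 0.00129), and Il22ra1, a chain of the IL-22 receptor (1.86 ± 0.23, adjusted p = 2.11e-04). Il1rn was sparse, going from 0.00789 to 0.0865 in the ileum, with too few UMIs for a ratio in the duodenum and the jejunum. Sigirr, an inhibitory receptor of the family, was called higher (0.56 ± 0.15, adjusted p = 0.011), but its level went from 0.351 to 0.277 in the ileum, the pooled level from 0.257 to 0.275, and without TMM the difference was 0.12 (adjusted p = 0.584). Il18bp, which encodes the soluble inhibitor of IL-18, did not pass (0.42 ± 0.25, adjusted p = 0.174).

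**Figure D2:**
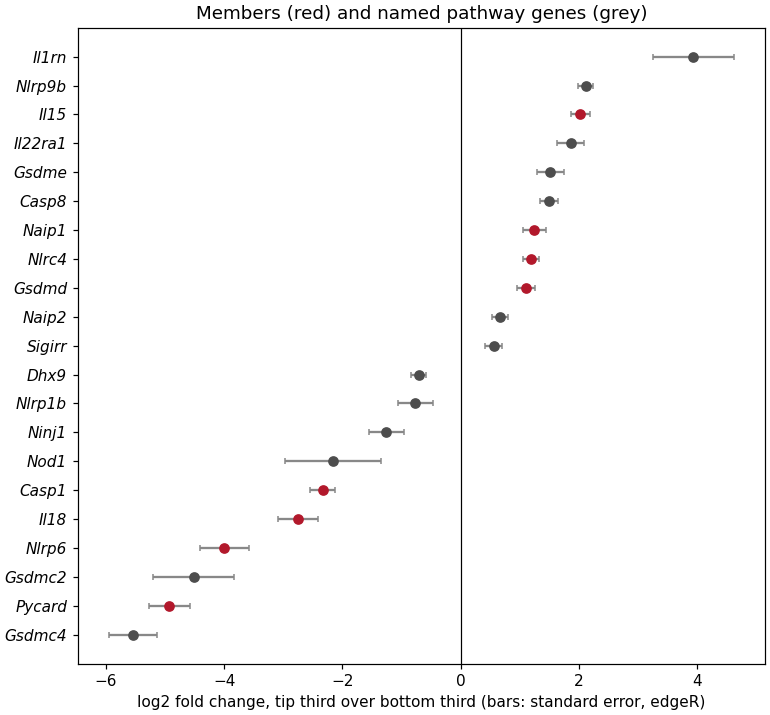
Log2 difference between tip and bottom zones of enterocytes for the 8 genes (red) and the called genes of the pathway list named in the text (grey), with the edgeR standard error as bars. Pycard at -4.93 and Nlrp6 at -4.00 stand near Gsdmc2 and Gsdmc4 on the left, and Il15 at 2.02 stands beside Nlrp9b on the right.

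Across cell classes, enterocytes had the highest pooled level of Gsdmd, Il18, Naip1, Nlrc4 and Il15. Pycard and Nlrp6 reached their highest pooled level in ISC-like cells. For Casp1 the pooled levels of ISC-like cells and enterocytes were alike (0.786 and 0.762, with overlapping intervals). Within the duodenum and the jejunum, Casp1 was lower in ISC-like cells than in enterocytes. Pycard stood at 11, 9.63 and 7.83 in ISC-like cells of the duodenum, jejunum and ileum, against 2.36, 1.45 and 2.01 in enterocytes. All 3 values were above the enterocyte values of each library, also above the bottom zones (3.37 to 4.83). An enterocyte cluster of 1121 cells, with Pycard among its leading genes, stood at 8.43 over the pooled libraries, above the ileal ISC-like value. The difference from enterocytes was 1.46 ± 0.26 on the log2 scale (edgeR, adjusted p = 2.57e-05). After thinning every cell to 800 UMIs, 45.5% of ISC-like cells and 6.88% of enterocytes held a Pycard UMI (93.9% and 31.7% unthinned, at median depths of 18306 and 10554 UMIs).

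Nlrp6 in ISC-like cells stood at 1.40, 1.12 and 1.49, below the bottom zones of enterocytes (1.5 to 1.6) and above the enterocyte totals of 1.05, 0.750 and 0.714. In the edgeR fit, which scales the libraries by TMM, the difference from enterocytes was -0.18 ± 0.28 (adjusted p = 0.616). Without that scaling it was 0.71 with an adjusted p of 0.0350, and DESeq2 gave 0.22, so its direction depended on the scaling. Leaving TMM out shifted the median gene from -0.18 to 0.66 in this comparison. Casp1 behaved likewise, with levels of 0.795, 0.608 and 0.878 against 0.856, 0.649 and 0.791 in enterocytes, a called difference of -0.89 ± 0.23 (edgeR adjusted p = 0.0015) and -0.01 without TMM (adjusted p = 0.982). Without the jejunum its adjusted p was 0.0638.

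The other 5 genes were lower in ISC-like cells than in enterocytes. Gsdmd stood at 0.252, 0.235 and 0.517, against 2.40, 3.53 and 3.30 in enterocytes (log2 difference -4.08 ± 0.34, edgeR adjusted p = 3.27e-10). Il18 stood at 0.340, 0.0490 and 0.0611 (-4.00 ± 0.42, adjusted p = 1.23e-08). The ISC-like cells thus held the adaptor and little of the cytokine or of the pore former. In all, 6 of the 8 genes were called lower (background 32.8%) and 1 higher (27.5%).

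In goblet-like cells, 6 of the 8 genes were called lower than in enterocytes (background 18.4%). Nlrp6 was among the lowest relative to enterocytes, at 0.151, 0.103 and 0.0812 (-2.85 ± 0.32, edgeR adjusted p = 1.03e-07), and Il15 at 0.0792, 0.0543 and 0.0357 (-2.80 ± 0.41, adjusted p = 4.61e-06). Nlrc4, at 0.396, 0.462 and 0.426, did not pass (-0.23 ± 0.25, adjusted p = 0.528), nor did Casp1, at 0.743, 0.467 and 0.440 (-0.41 ± 0.22, adjusted p = 0.183). Il18 stood at 0.660, 0.266 and 0.432. In the ileum the goblet-like level was 97.1% of the enterocyte level, in the duodenum 22.4% and in the jejunum 32.6%. Its call (-1.15 ± 0.36, edgeR adjusted p = 0.0134) was lost without the duodenum (adjusted p = 0.177) or the jejunum (0.215), and with DESeq2 (0.0811). The Pycard call (-1.01 ± 0.26, adjusted p = 0.00303) was lost without the jejunum (0.0759).

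All 8 genes were called lower than in enterocytes in tuft-like cells (background 23.5%) and in EEC-like cells (26.9%). Nlrc4 was the least reduced in both, at 0.249, 0.261 and 0.416 in tuft-like cells (-1.38 ± 0.28, edgeR adjusted p = 2.79e-04) and at 0.291, 0.477 and 0.613 in EEC-like cells (-1.10 ± 0.28, adjusted p = 0.0018). Without TMM the EEC-like value was -0.27 (adjusted p = 0.452). The 24 Paneth-like cells reached 10 cells in the ileum alone and were not tested. They held 32 UMIs of Pycard (0.724), 6 of Il18 (0.136) and 2 of Nlrp6 (0.0452).

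In T cell-like cells, Pycard and Casp1 were the genes nearest to their enterocyte level, at 73.1% and 92.8% of it over the pooled libraries. Pycard was 1.69, 1.56 and 1.39 and Casp1 was 1.06, 0.639 and 0.703. All 8 genes were called lower than in enterocytes in T cell-like (background 32.7%), B cell-like (33.6%) and macrophage or dendritic cell-like cells (31.7%). The T cell-like Casp1 call (-0.90 ± 0.24, edgeR adjusted p = 0.00245) was -0.01 without TMM (adjusted p = 0.987) and was lost without the jejunum (0.0843) or the ileum (0.0750). The T cell-like Pycard call (-1.21 ± 0.27, adjusted p = 3.59e-04) was -0.32 without TMM (0.325). In IgA plasma cell-like cells 7 genes were lower (background 27.8%) and Pycard was higher (17.9%), at 1.70, 1.57 and 3.90 (0.94 ± 0.26, edgeR adjusted p = 0.00454). That call was lost without the jejunum (0.0641) and without TMM (0.459). For the macrophage or dendritic cell-like cells, Casp1 stood at 0.699, 0.406 and 0.649 (-1.13 ± 0.25, adjusted p = 4.03e-04, and -0.39 with an adjusted p of 0.184 without TMM).

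RNA released by enterocytes can give UMIs to other cells. The 13 enterocyte markers served as a yardstick: in ISC-like cells their median stood at between 5.21% and 8.87% of the enterocyte level over the 3 libraries. In goblet-like cells it stood at between 7.55% and 12.6%, and in T cell-like cells at between 9.75% and 32.8%. Nlrp6 in goblet-like cells, at 14.4%, 13.8% and 11.4% of the enterocyte level, was within the range of the 13 markers in each library (up to 13.3% in the ileum). It was above their median in each (12.6%, 10.9% and 7.55%). Il15 in goblet-like cells, at 20.8%, 10.4% and 9.97%, was also within the range in each library. Neither gene is read as expression there, and the source of these UMIs was not tested. In T cell-like cells Nlrp6 stood at 0%, 11.2% and 12.1%, inside the markers' range in the jejunum (5.06% to 16.6%) and below it in the duodenum (15.0% to 46.1%) and the ileum (13.7% to 18.2%), and is likewise not read as expression. Il18 in T cell-like cells, at 16.1%, 8.24% and 11.8%, was below the markers' median in each library. Pycard in T cell-like cells, at 71.8%, 108% and 68.9%, was above the highest marker in each.

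**Figure D3:**
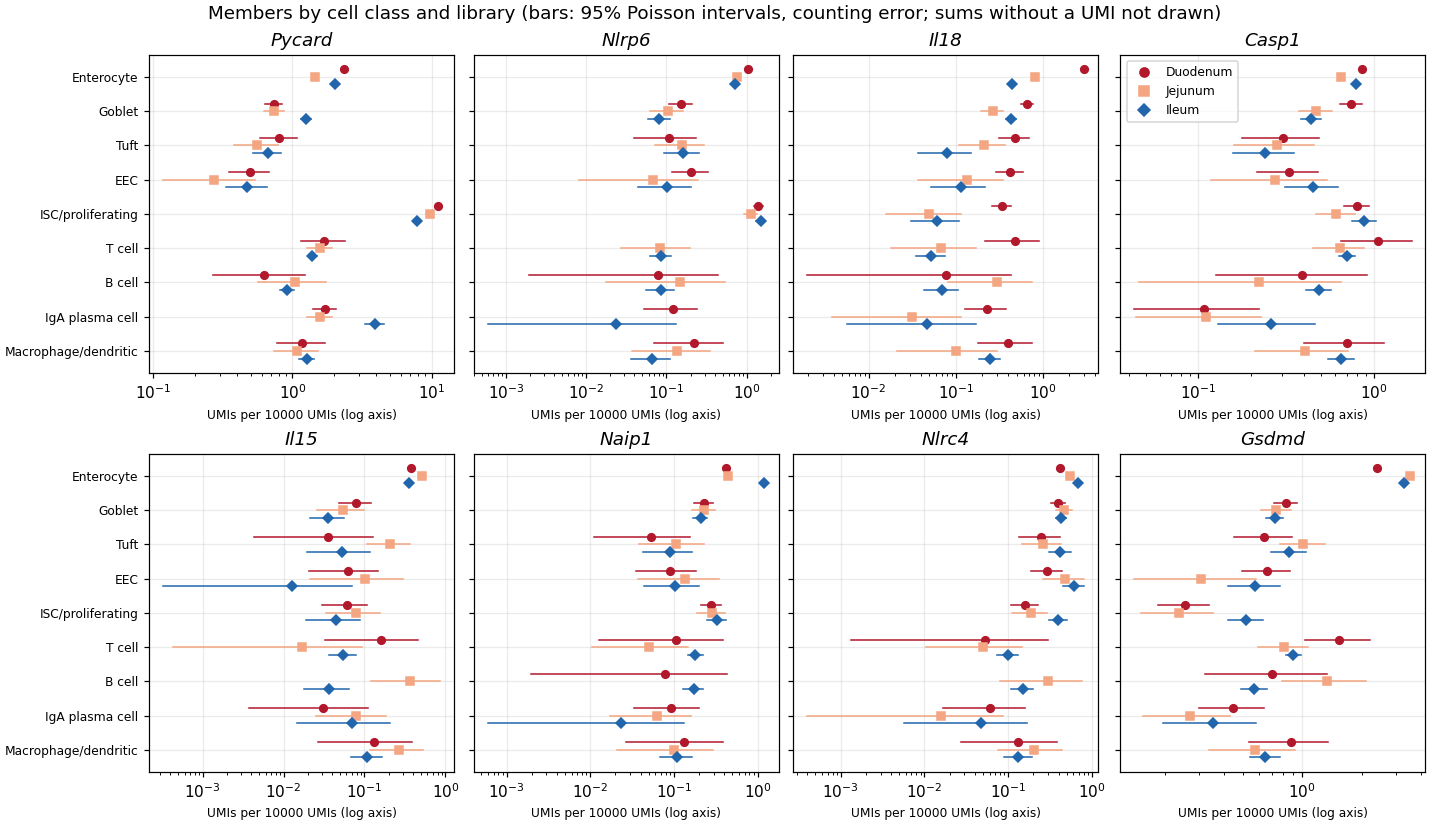
Levels of the 8 genes by cell class and library (UMIs per 10000 UMIs, log axis), with 95% Poisson intervals for counting error. ISC-like cells stand highest for Pycard (7.83 to 11), enterocytes stand highest for Gsdmd (2.40 to 3.53), and sums without a UMI are not drawn.

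Genes of the pathway list that stood above the 8 genes in a class were of other kinds. In macrophage or dendritic cell-like cells Il1b, an inflammasome substrate of myeloid cells, stood at 21 per 10000 UMIs and Il1r2, a decoy receptor, at 2.31. Their sensors were Nlrp3 at 0.618 and Mefv at 0.269, both at or under 0.00042 in enterocytes, and of 36 tested list genes 13 were called higher than in enterocytes (background 27.2%) and 12 lower. T cell-like cells stood at 2.10 for Il2rg and 1.89 for Il2rb, the receptor chains that IL-15 shares with IL-2. They also stood at 0.103 for Il18r1, against 0.00161 in enterocytes (5.34 ± 1.04 on the log2 scale, edgeR adjusted p = 1.2e-04). EEC-like cells stood at 1.27 for Gsdma, against 0.00433 in enterocytes (7.28 ± 0.45, adjusted p = 4e-10). Txnip, a regulator of thioredoxin, stood between 2.19 and 5.34 in every class. In enterocytes Casp8 (1.70) and Naip5 (1.23) were at levels of the same order as the 8 genes.

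Along the intestine, Il18 and Naip1 ran in opposite directions in enterocytes. Duodenal Il18 stood at 2.95, jejunal Il18 at 0.816 and ileal Il18 at 0.444. The duodenal level was thus 3.62 times the jejunal and 6.64 times the ileal one. Naip1 stood at 0.421, 0.447 and 1.19, so that the ileal level was 2.66 times the jejunal and 2.83 times the duodenal one. These differences exceed counting error, but with 1 library per segment they had no replicate and no test, and the segment cannot be told apart from the library. The mitochondrial shares of duodenum and jejunum were alike among kept cells. Over the mitochondrial limit were 5129 of 9501 duodenal, 3689 of 8139 jejunal and 1291 of 9595 ileal barcodes. With at most 20% mitochondrial UMIs, Il18 levels from proximal to distal were 4.46, 1.55 and 0.435. The duodenal level was then 2.88 times the jejunal and 10.2 times the ileal one. The part of this limit in the segment differences was not tested. Over all enterocytes Bco2 again went along with Il18, at 0.579, 0.217 and 0.116.

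The other 6 genes stayed within 2-fold between segments over all enterocytes. Nlrp6 stood at 1.05, 0.750 and 0.714, Pycard at 2.36, 1.45 and 2.01 and Casp1 at 0.856, 0.649 and 0.791. Gsdmd stood at 2.40, 3.53 and 3.30, Nlrc4 at 0.413, 0.539 and 0.686 and Il15 at 0.381, 0.521 and 0.358. Nlrc4 was higher in order from duodenum to ileum as Naip1 was, and the ileal level was 1.66 times the duodenal one. Past 2-fold were 1 of 8 genes for jejunum over duodenum, where 16.0% of all genes passed, 1 for ileum over jejunum (17.6%) and 2 for ileum over duodenum (25.1%). With at most 20% mitochondrial UMIs, ileum over duodenum passed 2-fold also for Pycard (a ratio of 0.406) and Nlrc4 (2.05), with no share of all genes given for that setting. In these cells ileum over jejunum went from 1.39 to 0.556 for Pycard, from 1.22 to 0.655 for Casp1 and from 0.545 to 0.281 for Il18.

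The segment pattern depended on the zone. In the bottom zone, Nlrp6 was alike in the 3 segments (1.6, 1.56 and 1.5), whereas at the tip the jejunal level was 0.157 times and the ileal level 0.184 times the duodenal one. Il18 went the same way, with a jejunal over duodenal ratio of 0.392 at the bottom and 0.0888 at the tip. For Naip1 the ileal over jejunal ratio was 2.20 at the bottom and 3.33 at the tip. In the middle zone 3 genes passed 2-fold for jejunum over duodenum (Il18 at 0.104, Pycard at 0.161 and Nlrp6 at 0.333). The share of all genes past 2-fold is given for all enterocytes only, not within a zone. Whether these genes differ more between segments than other genes of a zone was thus not tested. Zones were cut within each library, so a zone need not be the same stretch of villus in each segment.

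**Figure D4:**
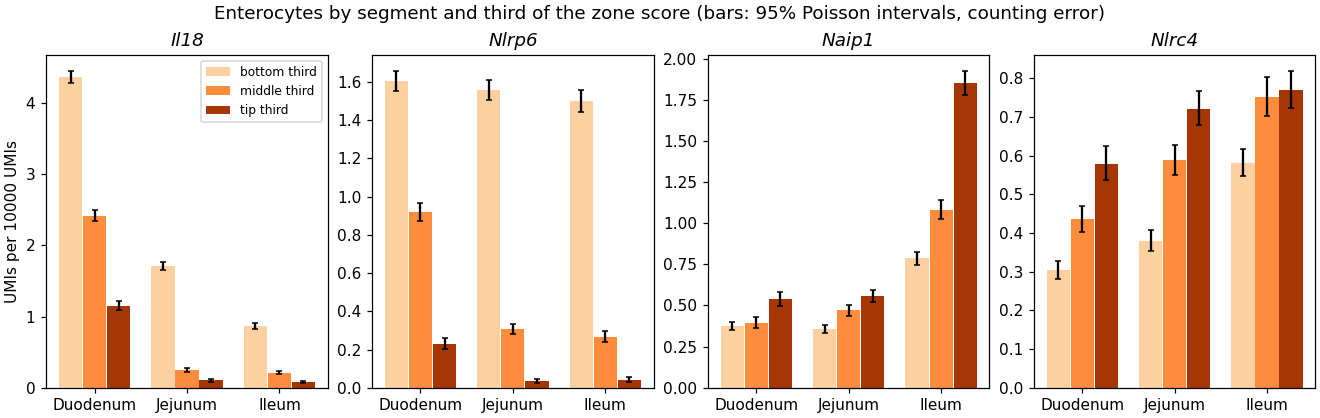
Levels of Il18, Nlrp6, Naip1 and Nlrc4 (UMIs per 10000 UMIs) in enterocytes by segment and zone of the score, with 95% Poisson intervals for counting error. Il18 is highest in the duodenum in every zone, Nlrp6 is alike at the bottom (1.5 to 1.6) and differs above it, and Naip1 is highest in the ileum in every zone.

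Other epithelial classes did not all repeat these orders. In ISC-like cells Il18 stood at 0.340, 0.0490 and 0.0611, and in tuft-like cells at 0.480, 0.209 and 0.0797. In ISC-like cells these were 11.5%, 6.01% and 13.8% of the enterocyte level, above the median of the 13 enterocyte markers (8.87%, 5.21% and 8.66%) but inside their range. In tuft-like cells they were 16.2%, 25.6% and 17.9%, also above the marker median (9.46%, 15.3% and 10.6%). The tuft-like marker range reached 1467% in the ileum, so it is too wide to tell released RNA from expression. The part of enterocyte RNA was not tested, and no order of their own is read from either class. Goblet-like cells held more in the ileum (0.432) than in the jejunum (0.266). Naip1 was level between the segments in goblet-like cells (0.230, 0.228 and 0.208) and in ISC-like cells (0.280, 0.284 and 0.328).

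Genes whose levels were most like those of each member over 28 sums of class and library, among 12904 genes, are given by Pearson's r as a description, since the sums share libraries and classes. They were Adipor2 (0.87), Ogdh and Ncoa4 for Il18 and Slc39a5 (0.92), 9130008F23Rik and Cftr for Nlrp6. For Pycard they were Gm15533 (0.82), Slc28a3 and Rbp7, and for Casp1 Tex261 (0.87), Rac1 and Psme2. Gsdmd was most like Rfk (0.91), Slc52a2 and Pls1, and Naip1 was most like Arhgap42 (0.84), Plek2 and Tnfaip1. The nearest to Nlrc4 were Shb (0.88), App and Map7, and to Il15 Hes2 (0.86) and Tmem37. Among the 8 genes the highest r was between Nlrp6 and Naip1 (0.71), and Il18 had an r of -0.03 with Pycard.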

How the data were processed

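With Cell Ranger 3.0.2 (builds GRCm38 and mm10 per the labels) the authors made the deposited matrices, raw whole-number UMI counts of called barcodes, from 3 libraries prepared with a 3′ kit. Following the study's limits, cells were kept if mitochondrial UMIs made up at most 40%, genes numbered 200 to 6000 and UMIs 800 to 50000. Libraries were integrated with Seurat 5.3.0 (2000 variable genes, 30 principal components, resolution 0.8), and clusters were named from marker lists where at least 3 markers were detected. No doublet caller was run. UMIs were summed per library and class or zone (at least 10 cells) and tested with edgeR 4.0.16 in R 4.3.3 by quasi-likelihood, with the library as a block, after filterByExpr and TMM, at a threshold of 0.05 after Benjamini-Hochberg adjustment over all genes. Cells were not replicates, so p-values measure the spread between 3 segment libraries of 1 pool of mice. Intervals are exact, at 95%, and cover counting error only. In simulated data for tip against bottom, 58.0% of 200 genes changed by 1 on the log2 scale were recovered among 11882, with 8 false calls. For goblet-like cells against enterocytes 11.5% were recovered among 12656. Far more genes were called in the data (7282 and 4116), which makes the adjustment less strict than in the simulation. The recovered shares thus need not hold for the data, and a missed call is still not read as no difference. Likeness used log2 of the level plus 0.1. Gene spans came from GENCODE M21, in which 99.6% of the gene identifiers matched. The 8 genes, the pathway and score lists and the tests were chosen with earlier results of these data known. Named were the 8 genes, pathway genes called in tip against bottom or standing above the 8 genes in a class, the 3 most alike genes, and checked markers, some of which are not reported here. Naip5, Naip6, Il18bp, Nlrp3, Mefv, Il18r1 and Bco2 were named after their values were seen.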

Additional observations from a re-analysis of the deposited data

Results flagged for a closer look

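Pycard in IgA plasma cell-like cells went opposite ways against enterocytes in different libraries. The log2 ratio of levels was 0.95 in the ileum (17 IgA plasma cell-like cells) and -0.48 in the duodenum (38 cells), each beyond counting error, and the difference between segments was not tested.

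The 1377 unnamed cells entered no comparison, and all 8 genes were detected in them. Their levels per 10000 UMIs were 0.983 for Il18, 2.43 for Nlrp6, 2.09 for Pycard, 0.829 for Casp1, 2.04 for Gsdmd, 0.995 for Naip1, 0.569 for Nlrc4 and 0.242 for Il15. Most were the 975 cells of a cluster led by pancreatic enzyme genes (Ctrb1, Prss2) and Gm26917, of which 662 came from the ileum. Its closest marker list was that of enterocytes, with all 13 markers detected, and it was kept out of them for its leading genes. It held Nlrp6 at 2.67, above any named class. The other 402 cells had a median of 1201 UMIs and T cell genes, and held Nlrp6 at 0.0735.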

How the results depend on the processing

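Of 128 values for tip against bottom (8 genes under 16 alternatives), 126 kept direction and call, and the other 2, Il18 and Naip1, lost the call without the library block. Labels give no replicate numbers, and the block is the library. Without the block 6 of the genes were called for tip against bottom, 1 for middle against bottom (7 with it) and 0 for tip against middle (5 with it, 2 at an unadjusted p under 0.05, edgeR). Leaving out 1 library gave 3 to 8 calls for middle against bottom and 0 to 5 for tip against middle. Tip against middle gave 8 with 5 bins in place of 3 zones, and 3 without the haemoglobin cluster, an alternative chosen after seeing the data. Over all genes, without the block 3608 were called for tip against bottom (7282 with it), 279 for middle against bottom (4134) and 0 for tip against middle (1880). For tip against middle 4270 were called with 5 bins, 1018 without the haemoglobin cluster, 1 without the jejunum and 5 without the ileum. For middle against bottom 818 were called without the jejunum and 1922 without the ileum. In classes, calls over all genes fell to 4481 (from 7655) for B cell-like and 4775 (from 7456) for macrophage or dendritic cell-like cells without the ileum, and to 2487 (from 4116) for goblet-like cells without the jejunum. Without TMM the split of calls for tip against bottom was 1932 higher and 5556 lower, beside 3336 and 3946, with the median gene moving from -0.09 to -0.53. For T cell-like cells it was 5566 and 2463, beside 3422 and 4144.

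Of 896 class values 871 kept direction and call. Nlrp6 in ISC-like cells turned to 0.224 with DESeq2, 0.709 without TMM and 0.0724 without the cells with most UMIs, and Nlrc4 in goblet-like cells turned to 0.0231 with at most 20% mitochondrial UMIs. The cause was not tested. Genes past 2-fold for jejunum over duodenum (1 over all enterocytes) numbered 3 in the middle zone and 4 at the tip. For ileum over jejunum (1) they were 2 in the middle zone, 2 at the tip, 2 with at most 20% mitochondrial UMIs and 2 with mitochondrial UMIs left out. For ileum over duodenum (2) they were 4 in the middle zone, 4 at the tip and 4 with at most 20% mitochondrial UMIs. Shares of all genes past 2-fold are given for all enterocytes only, so the counts under other settings have no background. The tip zone was added after seeing the data. Depth limits the rarer classes, whose sums hold as few as 0 UMIs of a gene.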

Other observations

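Some enterocyte clusters stood apart in the 8 genes. A cluster of 68 cells, 53 of them duodenal, had a median mitochondrial share of 0.596% and listed Il18 among its 10 leading genes. Within the duodenum its bottom-zone cells held Il18 at 10.3 per 10000 UMIs and Casp1 at 3.05, beside 4.30 and 1.28 in the other bottom-zone enterocytes. In the jejunum, with 10 such cells, Il18 was 2.90 beside 1.71 and Casp1 3.16 beside 1.23. Naip1 was lower there, at 0.05 beside 0.379 in the duodenum. These clusters were not tested, and clustering used genes that vary with them.

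A cluster led by haemoglobin genes (1233 cells, 880 ileal) held less Pycard and Il18 in the bottom zone and more Gsdmd. In the ileum Pycard was 0.461 beside 4.85, Il18 0.325 beside 0.903 and Gsdmd 4.34 beside 2.15, while Naip5 was 4.96 beside 1.54. Leaving out either cluster kept all 8 tip against bottom calls.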
